A study of Homo sapiens with 8 samples.

Results

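The genes described here encode 42 secreted plasma proteins of blood clotting, complement, protease inhibition and transport, listed by gene name for their textbook origin in hepatocytes. The rule uses no measured value, but earlier results of these data were known when it was written. They fell into 11 coagulation genes, 8 complement genes, 13 protease inhibitors and 10 carriers and other plasma proteins. All 42 were among the 60718 genes of the input count table, and 9 were among the 11244 genes for which ribosome footprints were deposited. The study profiled translating ribosomes in METTL5-WT and METTL5-KO cells labelled HepG2, a line derived from a human liver tumour. METTL5 is the methyltransferase that places m6A on 18S rRNA, and the comparison asks how its loss changes RNA level and ribosome occupancy. The 2 genotypes and 2 library types gave 4 groups of 2 libraries each: input RNA, kept from the cleared lysate, and ribosome-protected fragments (RPF), the RNA left after micrococcal nuclease digestion of the rest. All cells, METTL5-WT included, were treated with cycloheximide, which arrests elongating ribosomes. METTL5-KO was made with CRISPR-Cas9 and a pair of cuts that remove exons, and cells of both genotypes were expanded from single clones. Which clone gave which library is not stated, so clone and genotype cannot be told apart, and p-values measure only the spread between 2 samples, which may be technical.

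Most plasma proteins other than antibodies are made and secreted by hepatocytes. Clotting factors and complement components circulate largely as inactive precursors that are cut in a cascade, and protease inhibitors such as the serpins stop those proteases. In the acute-phase response, IL-6 acts through STAT3 and C/EBP factors, together with liver factors such as HNF4A, to raise secretion of fibrinogen, haptoglobin, complement C3 and several protease inhibitors.

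The targeted gene was lower in the METTL5-KO libraries, which still held METTL5 reads. METTL5 had 490 and 542 input counts in METTL5-WT against 208 and 151 in METTL5-KO, and 158 and 226 RPF reads against 41 and 21. Its log2 fold change was -1.86 ± 0.18 (SE) in input (edgeR adjusted p = 7.17e-08). Input libraries held between 10710226 and 15307257 counts, and RPF libraries between 3970779 and 9255921 reads, with both METTL5-WT RPF libraries the shallower.

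The defining markers of the labelled cell type were at or near 0. Of 10 hepatocyte markers, 7 had at most 3 counts in every input library, and the sums over all 10 were 7 and 4 for METTL5-WT against 11 and 14 for METTL5-KO. ALB (albumin), the most abundant hepatocyte transcript, had 1 count over all 4 libraries, TTR (transthyretin) had 0, and AFP (alpha-fetoprotein) had 0 and 0 for METTL5-WT against 5 and 9 for METTL5-KO. HNF4A, a transcription factor of hepatocyte identity, had 0, 1, 1 and 0. Of 5 fibroblast markers, 4 were above 3 counts, with 3372 to 4357 summed counts a library. Most of these came from COL3A1 (collagen type III, 2536 to 3317 counts), while COL1A2 had 1, 0, 0 and 0. Of 4 endothelial markers 2 were above that level, with 7 to 14 summed counts, and 0 of 5 leukocyte markers were. In METTL5-KO input, COL3A1 (-0.51 on the log2 scale) and PDGFRB (-0.91) were lower and COL1A1 (0.44) was higher by edgeR, and their part in the results below was not tested. The libraries labelled HepG2 therefore lacked the transcripts that define hepatocytes, which HepG2 cells are known to express, so the labelled line itself is in doubt. The 42 genes are described below as plasma protein genes and not as products of hepatocytes.

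**Figure D1:**
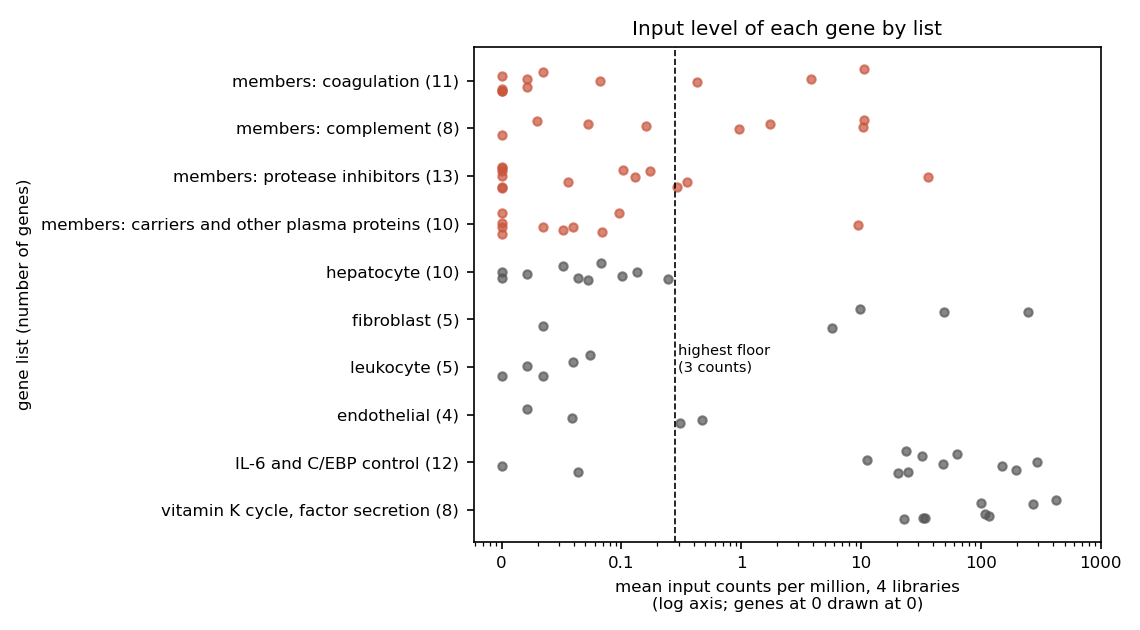
Mean input level of each gene over the 4 input libraries in CPM (read counts scaled to the same library total), on a log axis, with 1 point for each gene of the list named at the left, plasma protein genes in red and other lists in grey. The dashed line is the level of 3 counts in the shallowest library (0.280 CPM), and all 10 hepatocyte markers lie to its left while most genes of the vitamin K and IL-6 lists lie above 10.

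Most of the plasma protein genes were not measurably expressed. Of the 42 genes, 15 had no count in any input library and 13 more had at most 3 counts in each, so 28 stayed at or under the floor of 3 counts, which is 0.196 to 0.280 CPM at these depths. The remaining 14 rose above 3 counts in at least 1 library, and 8 of those had enough counts to be tested. An absence of counts here means that a level above that floor was not detected. Input libraries were bulk RNA, so fewer cells of a type and less RNA per cell cannot be told apart.

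**Figure D2:**
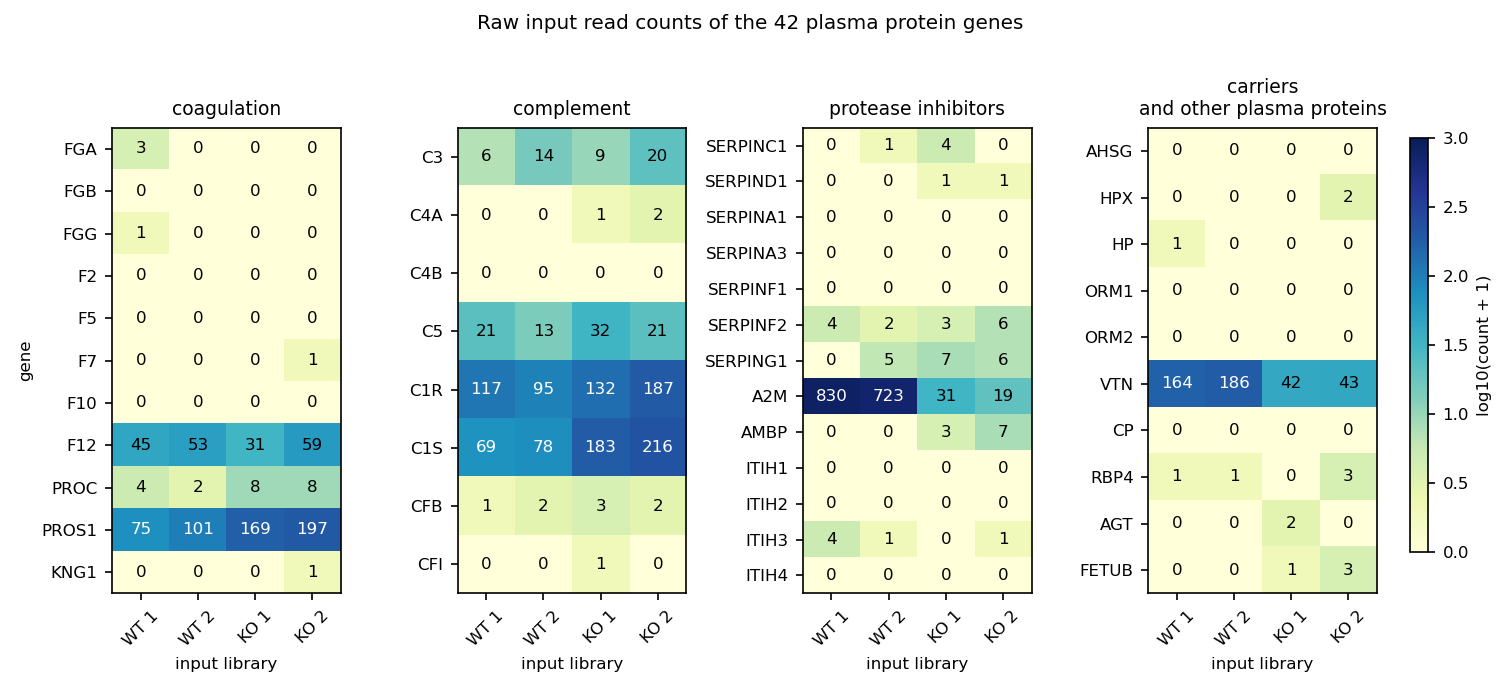
Raw input counts of all 42 plasma protein genes in the 4 input libraries (WT 1, WT 2, KO 1, KO 2), in 4 panels by role, with the count printed in each cell and shaded by log10(count + 1). Most cells hold 0 to 3 counts, and the dark rows are A2M, VTN, C1R, C1S, PROS1 and F12.

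Among coagulation genes, 4 of 11 had no count in any library (FGB, F2, F5 and F10) and 4 more had at most 3 counts. FGA, FGB and FGG, the 3 chains of fibrinogen, had 3, 0 and 1 counts in the first METTL5-WT library and 0 in the other input libraries. F2 (prothrombin), F5 (the cofactor of factor Xa) and F10 had 0 counts throughout, and F7, which starts the tissue factor pathway, and KNG1 (kininogen) had 1 count each, both in the second METTL5-KO library. F12, PROC and PROS1 were above the floor.

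Complement was the role with the most genes tested, 4 of 8. C4B had no count, and C4A, CFB (factor B of the alternative pathway) and CFI (factor I, which cleaves C3b) had at most 3 counts in every library. C4A and C4B are near-identical copies, so with uniquely mapped reads their low values are uncertain. C3, C5, C1R and C1S were above the floor.

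Among protease inhibitors, SERPINA1 (alpha-1-antitrypsin), SERPINA3, SERPINF1, ITIH1, ITIH2 and ITIH4 had no count, which makes 6 of 13. SERPINC1 (antithrombin) had 0 and 1 counts for METTL5-WT against 4 and 0 for METTL5-KO. SERPING1, the C1 inhibitor, had 0 and 5 counts against 7 and 6, SERPINF2 (alpha-2-antiplasmin) 4 and 2 against 3 and 6, and AMBP (the precursor of bikunin) 0 and 0 against 3 and 7. AMBP was at 0 in both METTL5-WT libraries, but all of these counts were too low to be tested. ITIH3 had 4 and 1 counts against 0 and 1, and SERPIND1 (heparin cofactor II) had 0 and 0 against 1 and 1. A2M alone in this role reached 10 counts in some library.

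Among carriers and other plasma proteins, 9 of 10 were at or under the floor. AHSG (fetuin-A), CP (ceruloplasmin) and the near-identical pair ORM1 and ORM2 (orosomucoid) had no count. HP (haptoglobin) had 1 count and HPX (hemopexin) 2 over all 4 libraries, while RBP4, the retinol carrier, had 1 and 1 against 0 and 3, AGT (angiotensinogen) 0 and 0 against 2 and 0, and FETUB 0 and 0 against 1 and 3. VTN was the exception, with 42 to 186 counts.

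Several of the genes at or under the floor, which were 28 of the 42, lie near each other on a chromosome. FGA, FGB and FGG lie on chromosome 4 with at most 31.3 kb between them, F7 and F10 are 2.11 kb apart on chromosome 13, and SERPINA1 and SERPINA3 are 222 kb apart on chromosome 14. AHSG, FETUB and KNG1 on chromosome 3, and C4A, C4B and CFB on chromosome 6, were likewise at or under the floor together. Other neighbours were split by the floor. SERPINF2 was above it, 6.76 kb from SERPINF1 on chromosome 17, which had no count. ITIH3 was above it on chromosome 3, between ITIH1 and ITIH4 (3.95 kb from the latter), which had no count. AMBP was above it on chromosome 9, 245 kb from ORM1 and 252 kb from ORM2, which had no count. SERPINF2, ITIH3 and AMBP were themselves too low to be tested. C1R and C1S, 9.18 kb apart on chromosome 12 and on opposite strands, were the closest pair with both genes tested.

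Promoter sequence was available from RefSeq (GRCh38.p14) for 29 of the 42 genes, as the 250 bases before the RefSeq gene start. For 3 of the 29 that start lies over 1 kb inside the span of the gene given here, which is that of its outermost annotated exons: PROS1 (6.11 kb), VTN (2.78 kb) and HPX (1.63 kb). For C5, and by a short distance for FGB, it lies outside that span. The sequences of a silent fibrinogen chain (FGB), the silent gene with the most C/EBP-like matches, and of a pair of measured genes with altered RNA level (PROS1 and VTN) are shown to let the letters searched be seen in place. They are written 5′ to 3′ on the strand of the gene, and capitals mark matches on either strand. The letters searched for a STAT site were TTCNNNGAA. A site like that of C/EBP was searched as TTNNGNAA. The TATA box, TATAAA, was searched as well and is in none of the 3 windows shown, and no marked match overlaps another in them.
FGB, chr4:154562730-154562979, plus strand: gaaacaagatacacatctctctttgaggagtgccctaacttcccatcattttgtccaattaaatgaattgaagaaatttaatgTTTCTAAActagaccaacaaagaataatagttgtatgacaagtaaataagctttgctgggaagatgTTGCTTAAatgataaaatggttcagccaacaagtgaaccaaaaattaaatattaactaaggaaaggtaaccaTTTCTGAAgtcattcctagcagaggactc
PROS1, chr3:93973897-93974146, minus strand: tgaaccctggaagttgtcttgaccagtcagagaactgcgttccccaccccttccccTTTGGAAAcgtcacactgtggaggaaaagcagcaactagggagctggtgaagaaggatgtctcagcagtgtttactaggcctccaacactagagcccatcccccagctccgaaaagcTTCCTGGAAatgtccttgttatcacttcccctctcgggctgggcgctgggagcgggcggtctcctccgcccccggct
VTN, chr17:28370308-28370557, minus strand: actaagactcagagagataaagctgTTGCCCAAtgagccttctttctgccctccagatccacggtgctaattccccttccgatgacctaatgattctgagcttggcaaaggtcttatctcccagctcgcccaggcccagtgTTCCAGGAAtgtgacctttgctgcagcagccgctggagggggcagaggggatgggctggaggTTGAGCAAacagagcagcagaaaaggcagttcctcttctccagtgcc
TTCNNNGAA was in the window of 8 of the 29 genes (27.6%), PROS1 and VTN included, and of 6.57% of all 35116 promoters. TTNNGNAA, a short and degenerate motif, was in 16 of the 29 (55.2%, against 33.2%), and TATAAA in 4 (13.8%, against 10.7%). These matches describe the letters of the window and say nothing of binding in these cells.

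The summed share of plasma protein transcripts in input RNA was lower in METTL5-KO, and A2M carried that difference. All 42 genes together made up 0.0120% and 0.0119% of input counts for METTL5-WT against 0.00523% and 0.00526% for METTL5-KO, with exact binomial 95% intervals of 0.0114 to 0.0127% for the first and 0.00490 to 0.00564% for the last library. Without A2M the shares were 0.00460% and 0.00517% for METTL5-WT against 0.00499% and 0.00513% for METTL5-KO, so the groups overlapped. The intervals cover counting error only. An exact permutation test of 2 libraries against 2 cannot go below p = 0.333, so no test was made of these shares.

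Of the 8 plasma protein genes tested in input, 4 passed edgeR's quasi-likelihood test at an adjusted p under 0.05: A2M and VTN were lower and C1S and PROS1 were higher in METTL5-KO. Over all 14054 genes tested, 22.4% were called, 11.8% higher and 10.6% lower. In RPF, 3 of 9 genes passed limma (A2M and VTN lower, PROS1 higher), against 29.3% of 11240 genes. The edgeR test of the RPF reads, which left out PROC, called A2M and VTN alone, against 28.1% of all genes. Translation efficiency (TE), the change in RPF beyond the change in input, passed for 0 of 9 genes in limma and 0 of the 8 that edgeR tested, against 4.79% of all genes in limma (2.7% higher and 2.08% lower) and 6.95% in edgeR, and 1 of the 9 (C1S) had an unadjusted limma p under 0.05. DESeq2 gave an adjusted TE p to 3 of the 9 (A2M, VTN and C1R), and called 0 of these. The median log2 fold change was 0.19 over the 8 members tested in input. Over the 9 tested in RPF and TE, which add PROC, it was -0.60 and 0.068. Over all genes tested the medians were -0.0043, 0.022 and 0.021. The input and RPF medians of the members are therefore not over the same genes, and the RPF median is the value of F12 alone. The called genes had at least 19 input counts in every library, so none of them entered the test through 1 genotype alone.

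**Figure D3:**
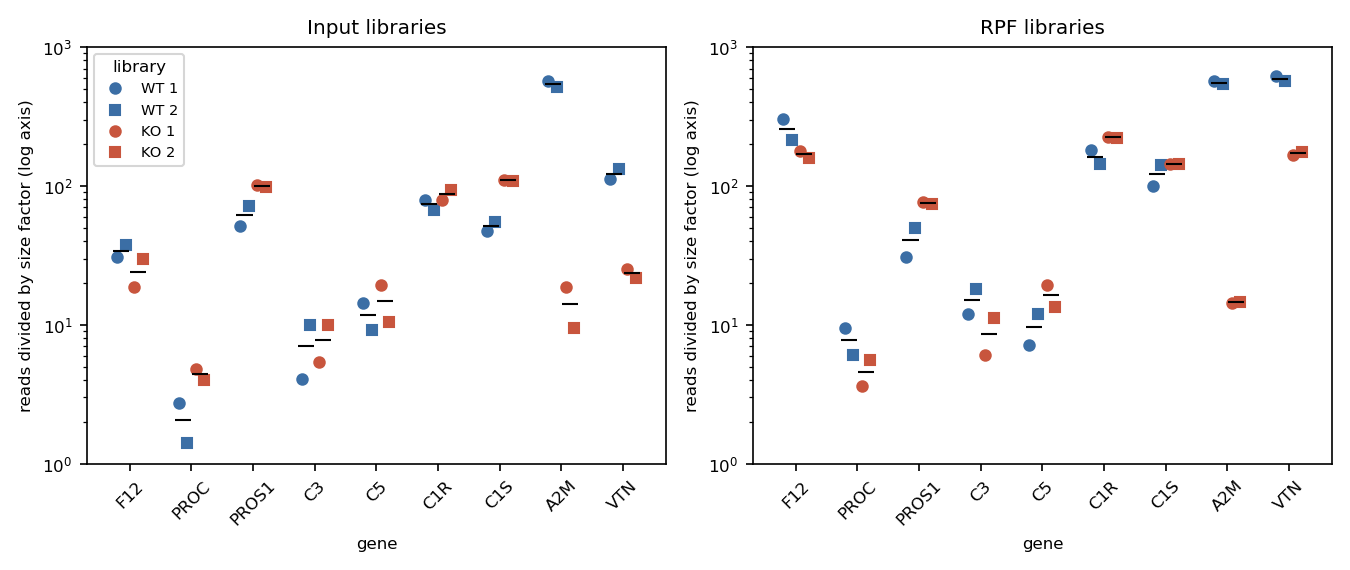
Input (left) and RPF (right) values of the 9 plasma protein genes with footprints, as reads divided by the size factor of the library, on log axes. Circles and squares are replicates 1 and 2, METTL5-WT in blue and METTL5-KO in red, and bars are means. A2M and VTN are lower in both METTL5-KO libraries of both kinds, and C5, C3 and PROC lie below 20.

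The protease inhibitor A2M had the largest change of the 8 genes tested. A2M (ENSG00000175899, chr12:9067664-9116229, minus strand, hg38) encodes alpha-2-macroglobulin, which traps proteases of all classes. It had 830 and 723 input counts for METTL5-WT against 31 and 19 for METTL5-KO, or 70.8 ± 4.61 CPM against 1.84 ± 0.852 (SD, n = 2). RPF reads were 239 and 268 for METTL5-WT against 12 and 13 for METTL5-KO, although the METTL5-KO RPF libraries were the deeper. Both METTL5-KO libraries were far below both METTL5-WT libraries in either measure, and the groups did not overlap. The log2 fold change was -5.30 ± 0.22 (SE) in input, a 39.3-fold difference (edgeR adjusted p = 7.39e-15), and -5.16 ± 0.29 in RPF, a 35.7-fold difference (limma adjusted p = 1.10e-09).

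RNA and footprints of A2M were lower by like amounts, and its TE difference was 0.068 ± 0.41 with a 95% interval of -0.79 to 0.93 on the log2 scale (limma adjusted p = 0.940). Per kilobase of exon, A2M stood at rank 4234 of 19919 protein-coding genes in METTL5-WT and at the 43.6th percentile in METTL5-KO. The antisense gene A2M-AS1 had 36 and 39 counts against 30 and 14, and input reads were counted by strand. No other protease inhibitor was tested, so nothing can be said of this role beyond A2M.

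VTN, a carrier in this grouping, also fell in input and in RPF. VTN (ENSG00000109072, chr17:28367284-28373091, minus strand) encodes vitronectin, an adhesion protein that also blocks the complement membrane attack complex. It had 164 and 186 input counts for METTL5-WT against 42 and 43 for METTL5-KO. Its RPF reads were 260 and 282 for METTL5-WT against 138 and 158 for METTL5-KO, which after division by the size factor were 592 ± 36.9 against 171 ± 6.90 (SD, n = 2). The groups did not overlap in input or in RPF. The log2 fold change was -2.39 ± 0.25 in input, 5.25-fold (edgeR adjusted p = 1.29e-07), and -1.78 ± 0.22 in RPF, 3.44-fold (limma adjusted p = 1.27e-05).

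The TE of VTN was 0.55 ± 0.30 higher in METTL5-KO on the log2 scale, with an interval of -0.095 to 1.19 that includes 0, and did not pass the test (limma adjusted p = 0.30, edgeR 0.236). In METTL5-WT it was the plasma protein gene with the second highest input level per length, at rank 5100 of protein-coding genes. Its RPF reads, scaled to coding length and to the total of the library as RPKM, were 45.7 and 42.8 for METTL5-WT, above the 13.6 and 13.2 of A2M.

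C1S and C1R, the paired serine proteases of the first complement component, differed in their input calls: C1S was higher in METTL5-KO and C1R was not called. C1S (ENSG00000182326, chr12:6988259-7071032, plus strand), which cleaves C4 and C2, had 69 and 78 input counts for METTL5-WT against 183 and 216 for METTL5-KO. C1R (ENSG00000159403, chr12:7080214-7092540, minus strand), which activates C1S, had 117 and 95 against 132 and 187. C1S was higher in both METTL5-KO libraries than in both METTL5-WT libraries, while for C1R the normalised values of METTL5-WT (79.7 and 67.5) and METTL5-KO (79.6 and 93.9) overlapped. The log2 fold change was 1.08 ± 0.22 for C1S, 2.12-fold (edgeR adjusted p = 0.000754), and 0.23 ± 0.22 for C1R (adjusted p = 0.500). The difference between the 2 genes was not itself tested.

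In footprints C1S was not called. It had 42 and 71 RPF reads for METTL5-WT against 120 and 129 for METTL5-KO, or 121 ± 30.1 against 144 ± 0.616 after division by the size factor (SD, n = 2). Both METTL5-KO values, 145 and 144, were just above the second METTL5-WT value of 142, and the first was 99.8. The RPF log2 fold change, 0.27 ± 0.25, did not pass (limma adjusted p = 0.447). The TE difference was -0.81 ± 0.35 with an interval of -1.56 to -0.064. That TE difference had an unadjusted limma p of 0.0350 and did not pass after adjustment (0.183 in limma, 0.109 in edgeR). C1R had 76 and 72 RPF reads against 186 and 199, an RPF log2 fold change of 0.46 ± 0.23 (limma adjusted p = 0.136) and a TE difference of 0.23 ± 0.32.

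The annotated span of C1S takes in EMG1 on the same strand, a ribosome biogenesis factor that had 1202 and 1099 counts for METTL5-WT against 694 and 883 for METTL5-KO, so its counts were lower in the libraries where those of C1S were higher. C1R likewise overlaps C1RL, with 57 to 85 counts. C3 overlaps GPR108 on the same strand, which had 222 to 468 counts against 6 to 20 for C3. VTN overlaps ENSG00000273171, a protein-coding gene on the same strand with 0 counts in every input library. How reads in such overlaps were assigned in the RPF libraries is not given in the sources used here. The part of such overlaps in the input counts and TE of C1S, C1R, C3 and VTN was not tested.

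C3 and C5, the central component of all complement pathways and the first of the terminal pathway, were low. C3 had 6 and 14 input counts against 9 and 20, and 5 and 9 RPF reads against 5 and 10. C5 had 21 and 13 input counts against 32 and 21, and 3 and 6 RPF reads against 16 and 12. Input values of the groups overlapped for both genes, and neither was called in input (edgeR adjusted p = 0.894 for C3 and 0.705 for C5). The TE intervals were wide, from -2.78 to 0.91 for C3 and from -1.17 to 2.05 for C5, and differences within those intervals were not detectable at this depth.

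PROS1 was the coagulation gene with a called difference. PROS1 (ENSG00000184500, chr3:93873051-93980003, minus strand) encodes protein S, the cofactor with which activated protein C inactivates factors Va and VIIIa. It had 75 and 101 input counts for METTL5-WT against 169 and 197 for METTL5-KO, and 13 and 25 RPF reads against 63 and 66. The groups did not overlap in either measure once divided by size factor, with input values of 51.1 and 71.8 against 102 and 98.9. The log2 fold change was 0.70 ± 0.22 in input, 1.62-fold (edgeR adjusted p = 0.0261), and 0.91 ± 0.31 in RPF, 1.88-fold (limma adjusted p = 0.0350).

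The PROS1 calls were near the threshold. In input the adjusted p was 0.0757 with DESeq2 and 0.380 without the first METTL5-WT library, where the log2 fold change was 0.47, and its lowest value among the alternatives was 0.00887. In RPF it was 0.0655 with edgeR and 0.0864 with DESeq2, within a range of 0.00591 to 0.197. The TE difference of PROS1 was 0.19 ± 0.44 (limma adjusted p = 0.841).

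F12 and PROC were not called. F12, which starts the contact pathway, had 45 and 53 input counts against 31 and 59, and 127 and 107 RPF reads against 148 and 142. Its normalised RPF values, 302 and 215 in METTL5-WT, were above the 178 and 158 of METTL5-KO, but the log2 fold change of -0.60 ± 0.30 did not pass (limma adjusted p = 0.144, edgeR 0.0520). PROC, the zymogen protein C that PROS1 assists, had 4 and 2 input counts against 8 and 8 and at most 5 RPF reads in any library, too few for the input test. Its TE interval ran from -3.57 to 0.60.

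**Figure D4:**
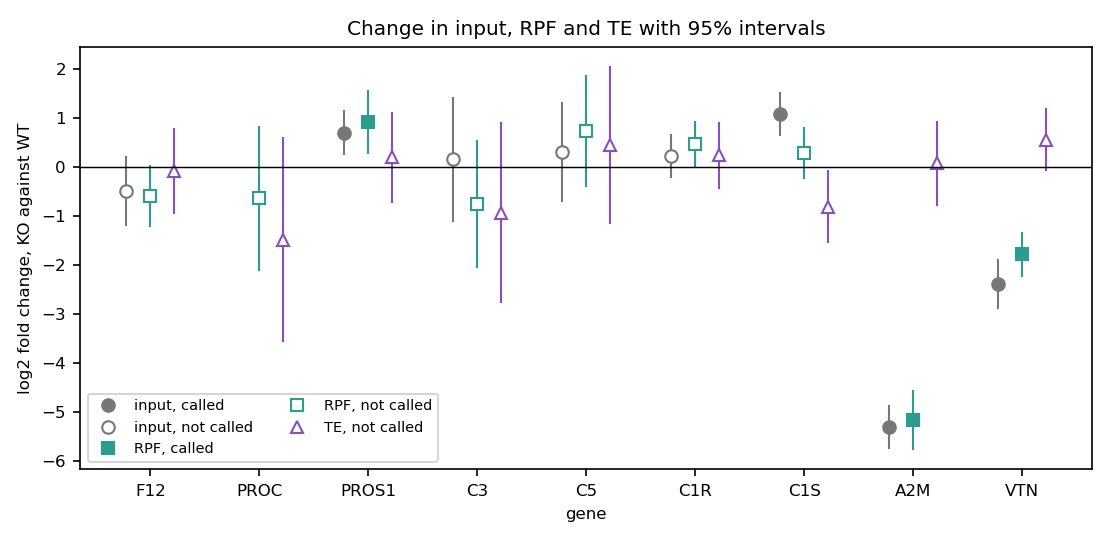
Log2 fold change of METTL5-KO against METTL5-WT in input (circles, edgeR), RPF (squares, limma) and TE (triangles, limma) for the 9 plasma protein genes with footprints, with 95% intervals. Filled symbols passed an adjusted p under 0.05. A2M and VTN lie far below 0 in input and RPF, no TE symbol is filled, and PROC has no input value because it was not tested.

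TE per length, as the mean of 2 libraries, was highest for F12 and lowest for C5 among the 9 genes in both genotypes, but not in each library. It was taken as footprints per coding kilobase over input per exon kilobase, and exon length is the union of all annotated exons, which makes the ratio higher for genes with many unused exons. F12 was at the 90.5th percentile of the TE table in METTL5-WT and the 89.6th in METTL5-KO, and VTN was at the 77.0th and 88.0th. PROS1 (19.6th and 25.2nd), A2M (15.4th and 17.3rd) and C5 (7.98th and 15.7th) lay low in both. In the second METTL5-KO library VTN (3.01 on the log2 scale) was above F12 (2.57), and C5 was above A2M in the second METTL5-WT library (0.48 against 0.30) and in the first METTL5-KO library (-0.068 against -0.30). C1S was at the 80.9th percentile in METTL5-WT and the 59.5th in METTL5-KO, and C1R at the 74.5th and 80.0th. C5 rests on 3 to 16 RPF reads a library. C3 and PROC, at 3 to 10, moved most, from the 54.9th to the 23.4th and from the 79.2nd to the 23.2nd and these ranks rest on few reads.

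The input changes were also set beside those of the nearest tested genes, 20 on either side of each gene. Around A2M the median log2 fold change of the 40 neighbours was -0.49, with 21 called lower and 2 higher, against 10.6% and 11.8% of all genes. All 40 neighbours were above A2M itself, the lowest of them at -1.75. C1S, 2.00 Mb from A2M and with neighbours in common, was above all 40 of its own, whose median was -0.45, with 17 called lower and 1 higher. C1R, not itself called, was likewise above 38 of its 40 neighbours, whose median was -0.43. Around VTN the median was -0.08 and all 40 neighbours lay above VTN. Around PROS1 the median was also -0.08, with 34 of 40 neighbours below PROS1. The part that the chromosome 12 neighbourhood has in the change of A2M was not tested.

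**Figure D5:**
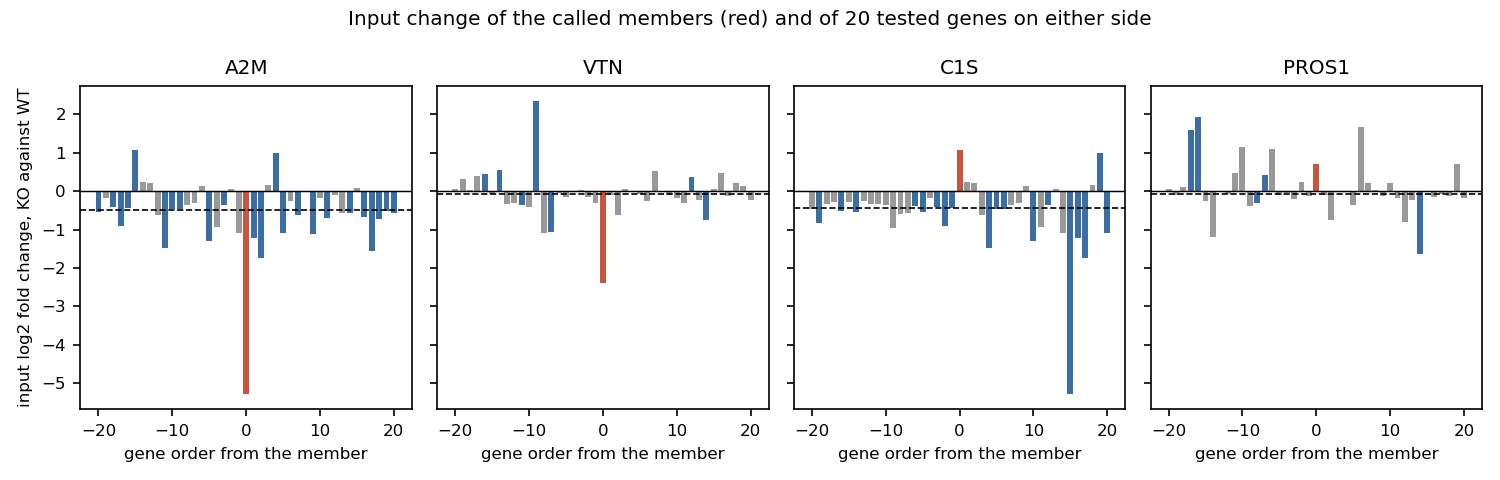
Input log2 fold change of METTL5-KO against METTL5-WT for A2M, VTN, C1S and PROS1 (red, at 0) and the 20 tested genes on either side in chromosomal order, with neighbours past an adjusted p of 0.05 in blue, others in grey and the neighbour median as a dashed line. The dashed line lies below 0 around A2M (-0.49) and C1S (-0.45) and near 0 around VTN and PROS1 (-0.08), and A2M appears again as the lowest bar around C1S.

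The rest of the clotting system was read from a list of 27 further genes, of which 8 had no count and 10 were tested in input. F8 (factor VIII, which PROS1 helps to inactivate) had 30 and 24 counts against 68 and 85 and a log2 fold change of 1.14 (edgeR adjusted p = 0.0146). THBD (thrombomodulin, the receptor on which thrombin activates protein C) had 46 and 69 against 145 and 169, at 1.09 (adjusted p = 0.00301). These were the 2 called higher, against 11.8% of all genes. In RPF, F8 (1.15, limma adjusted p = 0.0394) and ANXA5 (0.40, 0.00468) were higher, 2 of 10 against 16.2% of all genes, and edgeR called 1 of them. TE was called for 0 of 10 by either tool, with 4 at an unadjusted limma p under 0.05. F3 (tissue factor) and TFPI, its inhibitor, had 124 to 180 and 570 to 736 counts and were not called in any measure.

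The listed genes for maturation and secretion of clotting factors were all expressed, with 201 counts or more in every library. Of 8 genes of the vitamin K cycle and of factor secretion, 4 were lower in input and 0 higher, against 10.6% and 11.8% of all genes tested: VKORC1 (vitamin K epoxide reductase, -0.53), LMAN1 (the cargo receptor for factors V and VIII, -0.44), FURIN (-0.39) and CALU (-0.37). In RPF, VKORC1 (-1.70), FURIN (-0.87) and PCSK6 (-0.83) were lower and VKORC1L1 (0.45) was higher in limma, against 13.1% and 16.2% of all genes, with the same counts in edgeR. The RPF reads of VKORC1 were 9 and 3 against 3 and 2. TE was called for 0 of the 8 in limma and in edgeR, with 4 at an unadjusted limma p under 0.05. GGCX, the carboxylase that acts on PROC, PROS1, F2, F7 and F10, had 365 to 520 counts and was not called.

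Of 31 further complement genes, 11 had no count and 8 were tested in input. The 3 called lower, against 10.6% of all genes, were regulators that protect cells from complement: CD59 at -0.59 (edgeR adjusted p = 0.000699), CLU (clusterin) at -0.49 (0.00487) and CD55 at -0.48 (0.00621). In RPF and in TE 0 of 5 were called by limma or edgeR, with 1 in RPF and 1 in TE at an unadjusted limma p under 0.05. C4BPB, a chain of the C4b-binding protein that carries PROS1 in plasma, had 2173 to 3701 counts and was not called, while C4BPA, its other chain, had 8 and 4 against 1 and 0.

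Other acute-phase and carrier genes were mostly silent too. Of 25, 20 were at or under 3 counts in every library, among them CRP, SAA1, SAA2, SAA4, LBP and APCS. IGFBP4, with 590 to 675 counts, was the only one tested in input (-0.35, edgeR adjusted p = 0.0545), and was lower in RPF (-0.55, limma adjusted p = 0.00954). The IL-6 and C/EBP genes that drive this response were mostly present, and 10 of 12 were tested. In input 3 of them were called higher and 2 lower, against 11.8% and 10.6% of all genes tested. CEBPA was lower, with 184 and 170 counts against 71 and 102 (input log2 fold change -1.40, edgeR adjusted p = 4.00e-05), as was JAK1 (-0.32), and TYK2 (0.65), IL6R (0.60) and SOCS3 (0.44) were higher. In RPF, IL6ST (0.47) was higher and CEBPA (-1.13) lower in limma, 1 of 10 in each direction, against 16.2% and 13.1% of all genes. TYK2, a Janus kinase, was the only gene of all these lists with a called TE, at -0.73 (limma adjusted p = 0.0369, edgeR 0.0131). Over all genes, limma called 4.79% in TE.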

How the data were processed

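Input RNA and RPF were sequenced from 2 METTL5-WT and 2 METTL5-KO lysates of cells labelled HepG2, and groups and replicate numbers came from the sample titles. For input, the authors trimmed reads, aligned them to hg38 (STAR 2.7.3a) and deposited raw counts, made by featureCounts (version 1.6.0 in the processing notes, 2.0.1 in the file header), by strand over exons from uniquely mapped reads. For RPF, the authors kept footprint-length reads, removed rRNA and used RiboToolkit. The TE table is named RPKM, but each deposited signal value was a whole number of reads divided by a library constant (100% of values whole within 0.05 reads), and 100% of input values gave the count table. The plan had assumed RPKM and its log-scale test was kept, with count tests of the recovered reads beside it. The table's fold changes and p-values of TE, made by the authors, were not used. From the input counts, 3 broken lines were left out.

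The quasi-likelihood test of edgeR 4.0.16 was run on input (TMM scaling, filterByExpr, minimum count 10). For RPF and TE, log2(value + 1) went into limma 3.58.1 with a variance trend, for genes whose mean reached 1 among input and among RPF libraries, in a model of all 8 libraries in which TE is the interaction of genotype and library type. Fold changes of low genes are understated on that scale. DESeq2 1.42.0 was an alternative, R 4.3.3 and Python 3.11.15 were used, and scripts were tested on simulated data. Adjusted p-values are Benjamini-Hochberg over all genes tested and two-sided, and genes were called under 0.05. Depth was 10710226 to 15307257 counts for input and 3970779 to 9255921 reads for RPF, so a floor of 3 counts is 0.196 to 0.280 CPM.

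The 42 members and the other gene lists were chosen with earlier results of these data known. Values in every library were given for members called with groups that do not overlap, up to 4 in each direction per role and measure, and for the member with the highest input level per length in each role, and other members above the floor were added after their values were seen. METTL5-WT and METTL5-KO libraries of the same number deviated from their group means with a correlation of 0.039 in input and -0.0021 in RPF. Input and RPF of the same number came from the same lysate by protocol, with correlations of -0.016 in METTL5-WT and 0.053 in METTL5-KO. As libraries of a shared lysate also gave values near 0, these correlations cannot show whether the numbers pair the genotypes. The main fits did not pair them, and a block on the number was an alternative. Gene positions and coding lengths are from GENCODE release 44. Some genes and a motif of these lists are not reported here.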

Additional observations from a re-analysis of the deposited data

How the results depend on the processing

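The count of called plasma protein genes was 3 to 4 in input, 2 to 3 in RPF and 0 in TE under the alternatives run. A2M and VTN in input and RPF, and C1S in input, were called under each of them. Some alternatives left out each lysate in turn, which keeps 1 lysate in that genotype. For input this drops 1 input library, and for RPF and TE it drops the input and RPF libraries of the lysate together. PROS1 lost its input call under 2 alternatives, DESeq2 (0.0757) and leaving out the first METTL5-WT library (0.380). It lost its RPF call under 7, with a limma adjusted p of 0.0502 without a variance trend. Without the input and RPF libraries of the first METTL5-WT lysate its RPF log2 fold change was 0.57. With the replicate number as a block, 4 genes were called in input, 3 in RPF and 0 in TE, and with the lysate as a block 0 in TE.

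Some uncalled log2 fold changes turned sign. The TE of F12 was 0.038 with quantile normalization and 0.27 with a GC trend removed, also with the lysate block. It ran from -0.49 to 0.32 when the input and RPF libraries of each lysate were left out in turn. The TE of A2M was -0.027 in the GC fit with or without the lysate block, and -0.38 to 0.52 with lysates left out. In both of those GC fits the TE of PROS1 was -0.082. With 1 input library left out, the input change of C5 ran from -0.16 to 0.69 and that of C3 from -0.37 to 0.92. With the input and RPF libraries of 1 lysate left out, the TE of C5 ran from -0.19 to 1.07. Over all members, 318 values kept direction and call, 9 lost the call, 14 turned sign and 6 TE values had no adjusted p in DESeq2, and the cause was not tested.

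The number of genes called in TE was 538 in limma, 774 in edgeR, 837 in DESeq2, 301 with the GC trend removed and 1 without a variance trend. A share of genes called in TE therefore depends on the fit. In input it was 1220 to 5474 with a library left out, against 3149. The balance of TE calls also turned with the fit: 56.5% were higher in limma, 69.4% with the GC trend removed, 44.7% in edgeR and 42.2% with quantile normalization. Depth limits C3, C5 and PROC, which had 3 to 16 RPF reads a library.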
